A study of Mus musculus with 8 samples.

Results

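The 10 genes described here encode transcription factors of the mesenchymal transition programme, namely Snai1, Snai2, Twist1, Twist2, Zeb1, Zeb2, Prrx1, Prrx2, Tcf4 and Ovol1. They were chosen by name, as every probe of the array other than control probes whose gene name was in this set. That gave 13 of the 55681 probes and 10 of the 36095 gene names, and the rule uses no measured value. The cells were mouse embryonic fibroblasts without the gene for the kinase Csk (Csk-/-, labelled CskKO), which switches c-Src off by phosphorylating its tail, and they carried the vector pBKT2-c-Src, from which doxycycline at 1 µg/ml induces c-Src. The times were 0, 6, 24 and 72 h of induction, each read on 2 one-colour Cy3 arrays, which makes 8 arrays. Every group, 0 h included, therefore lacked Csk and carried the vector. No Csk-positive cells and no doxycycline-treated cells without the vector are among the samples used here, so c-Src, doxycycline and time in culture cannot be told apart.

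Snail, Twist and Zeb proteins bind E-box sequences and are known for silencing epithelial genes, E-cadherin (Cdh1) first among them, when epithelial cells take on a mesenchymal form. Twist proteins do so as dimers with E proteins such as Tcf4, the paired-type homeodomain proteins Prrx1 and Prrx2 are at home in embryonic mesenchyme, and Ovol1 is a zinc-finger repressor that opposes the programme in epithelia. Fibroblasts are mesenchymal cells from the start, and most of these factors are normally expressed in them.

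Signal is given as a multiple of the array's own 75th percentile of spots (relative signal), and differences are log2 values of the later minus the earlier time with a standard error (SE). A gene was called changed at a Benjamini-Hochberg adjusted p under 0.05 in limma, fitted over 20839 genes. Probes differ in how brightly they bind, so no gene's level is set against another's. The labels say that samples were run in duplicate and name no separate cultures, so the p-values measure only the spread between these arrays, and 2 arrays per time limit the precision. The RNA comes from whole cultures, in which fewer cells with a transcript and less of it per cell cannot be told apart.

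Src had a relative signal of 0.393 and 0.437 at 0 h, between 8.12 and 11.3 on the 6 arrays from 6 h on, and was 26.9-fold higher at 6 h than at 0 h (limma, adjusted p = 1.44e-05). Csk stayed at background on all 8 arrays. Of 12 fibroblast markers 9 were well above background on every array, and the summed relative signal of the 12 was 969 to 1040 at 0 h, 1030 to 1050 at 6 h, 870 to 905 at 24 h and 811 to 819 at 72 h. Of the 10 fibroblast markers tested, 0 were called in either direction at 6 h, 1 higher and 6 lower at 24 h, and 1 and 9 at 72 h. The shares of all tested genes were 10.3% higher and 7.15% lower, 21.3% and 20.1%, and 27.4% and 24.6%. The median differences of these markers from 0 h were 0.02, -0.30 and -0.91. Thy1, a surface marker of many fibroblasts, was above background on no array. The defining epithelial markers Cdh1, Epcam, Cldn3 and Cldn4 were above background on no array, while 5 of the 10 epithelial markers were above it on all arrays. The summed relative signal of the 10 was 3.21 to 4 at 0 h, 3.59 at 6 h, 4.55 to 5.34 at 24 h and 5.18 to 5.37 at 72 h. Krt8 was the largest part of this sum, at a mean of 2.07 at 0 h and 3.95 at 72 h. Krt19 went from 0.51 to 0.185. Of the 6 epithelial markers tested, 3 were called higher and 2 lower at 72 h. The endothelial markers Cdh5, Emcn and Esam and the macrophage markers Ptprc and Adgre1 were also above background on no array. The 6 endothelial markers summed to 2.26 to 2.48 and the 5 macrophage markers to 16.2 to 17.9 over the 8 arrays, sums carried by Kdr and Itgam. Single markers within them moved. Tek was above background on both arrays at 0 and 6 h and on none at 24 and 72 h, and was called lower at the later times (limma, adjusted p = 0.0153 and 0.00138). Cd68 was above background on 0 arrays at 0 h, 1 at 6 h and both at 24 and 72 h, and was called higher at all 3 times (adjusted p = 0.00777, 0.000919 and 0.000135). Csf1r differed from 0 h by 0.88 at 6 h, 0.81 at 24 h and 0.44 at 72 h (adjusted p = 0.0026, 0.000841 and 0.00538). The part that the moving markers of these 4 cell types have in the results below was not tested.

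By 72 h, 7 of the 8 genes with a usable signal were higher than at 0 h and Prrx2 was lower. At 6 h, 6 of the 8 tested genes were called higher than at 0 h and 0 lower, where 10.3% of all tested genes were called higher, 7.15% lower and 17.4% in either direction. At 24 h 7 were called higher and 1 lower, against 21.3% and 20.1% of all genes (41.5% in either direction). At 72 h again 7 were called higher and 1 lower, against 27.4% and 24.6% (52% in either direction). The median difference of the 8 genes was 0.42 at 6 h, 0.41 at 24 h and 0.52 at 72 h, and that of all tested genes 0.01, -0.02 and 0.00. On all 8 genes the arrays of each later time did not overlap those of 0 h, which at 6 h was so for 62.7% of all tested genes, at 24 h for 69.8% and at 72 h for 78.1%. All these comparisons use the same pair of 0 h arrays. The 8 genes were well above background on all 8 arrays by their brighter probe, so none of them passed the filter through 1 time alone. Of the 22 calls against 0 h, 14 held in all 19 alternative settings and 8 were lost in at least 1. The changes were small, between 1.14-fold and 2.03-fold.

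**Figure D1:**
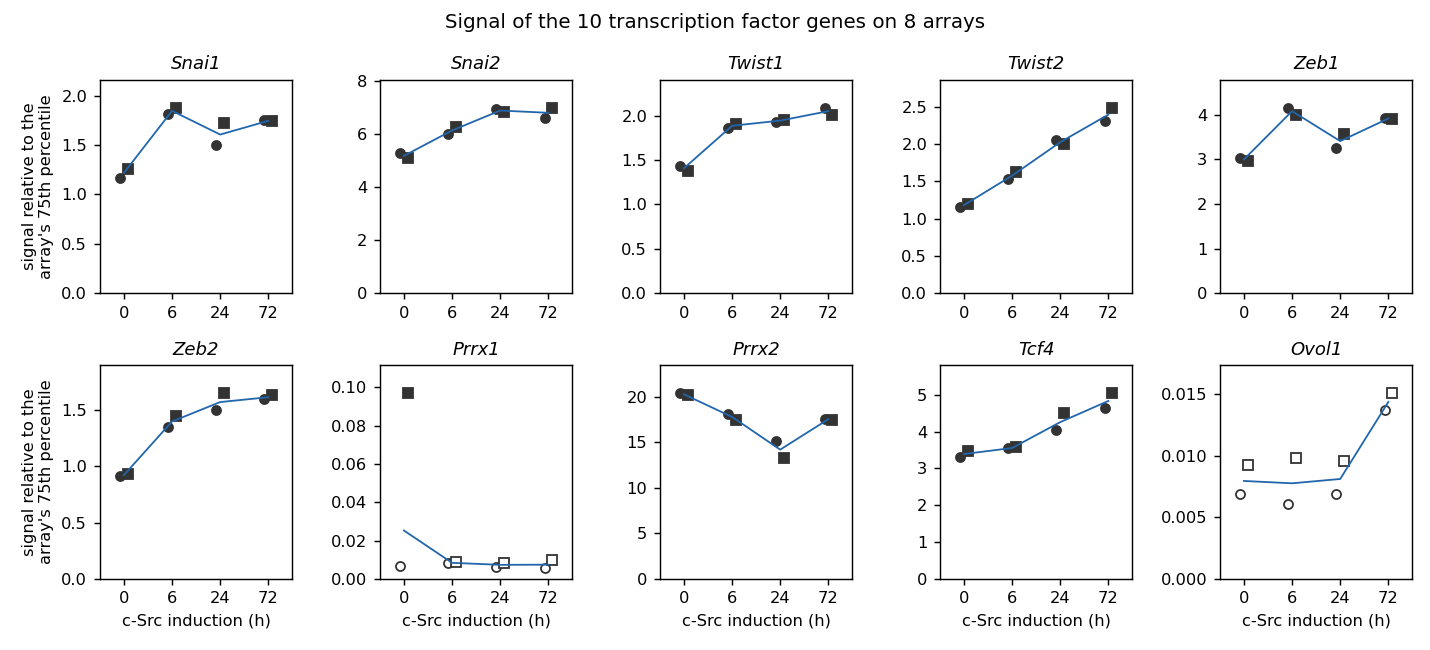
Relative signal (multiple of the array's 75th percentile) of the 10 genes by hours of c-Src induction. Circles are replicate 1 and squares replicate 2, filled where the spot was well above background and open where it was not, and lines join the geometric means of each time. Each panel has its own axis from 0. For Prrx1 and Ovol1, where most or all symbols are open, the lines join values at background and show no level. The Twist2 symbols climb at each time, Snai1 and Zeb1 stand highest at 6 h, and Prrx2 stands lowest at 24 h.

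Snai1 encodes Snail, a zinc-finger repressor that is unstable as a protein. Its probe lies at chr2:167368073-167368132 on mm9. Snai1 had a relative signal of 1.17 and 1.26 at 0 h, 1.81 and 1.88 at 6 h, 1.5 and 1.72 at 24 h, and 1.75 and 1.74 at 72 h. Both 0 h arrays lay below all 6 others, and the 24 h arrays were the furthest apart. Snai1 was 0.60 ± 0.08 higher at 6 h than at 0 h (SE, n = 2 each, 1.52-fold, limma, adjusted p = 0.00732), 0.40 ± 0.08 higher at 24 h (1.32-fold, adjusted p = 0.00984) and 0.52 ± 0.08 higher at 72 h (1.43-fold, adjusted p = 0.00281). The call at 6 h was lost without 6 h replicate 2 (0.57). That at 24 h was lost without 0 h replicate 1 (0.35) and with only the arrays compared. After 6 h no further change passed the test, the largest being a difference of -0.20 between 24 h and 6 h (adjusted p = 0.116).

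The sequence upstream of Snai1 is shown because Snail proteins bind the E2-box CACCTG. The 250 bases before the Snai1 transcript start in RefSeq (GRCm38.p6, chr2:167537945-167538194, plus strand) hold 1 such E2-box, in capitals, which begins 126 bases before the start:
Snai1: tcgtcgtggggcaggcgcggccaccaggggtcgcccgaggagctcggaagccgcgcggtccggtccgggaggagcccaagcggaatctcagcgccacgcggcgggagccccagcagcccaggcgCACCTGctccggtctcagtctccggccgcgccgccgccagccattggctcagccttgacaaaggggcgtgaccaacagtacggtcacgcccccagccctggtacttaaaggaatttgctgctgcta
Of all 32851 RefSeq windows of 250 upstream bases, 17.2% hold an E2-box on either strand, so the match is a description and says nothing on binding in these cells. Each E2-box is also an instance of the wider E-box CANNTG, which 66.2% of the windows hold. Windows of 6 of the 10 genes were searched, 9 windows in all, since Zeb2 has 4 starts. Windows of Zeb1 and Tcf4 were left out of this search, and none was used for Snai2 and Ovol1. The windows of Twist1, Twist2, Prrx1 and Prrx2 hold neither an E2-box nor an E-box.

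Snai2 encodes Slug, the second Snail-type repressor, known in mesenchyme and neural crest. The Snai2 probe lies at chr16:14709361-14709420 (mm9). Snai2 had a relative signal of 5.28 and 5.08 at 0 h, 6.00 and 6.28 at 6 h, 6.93 and 6.84 at 24 h, and 6.62 and 7 at 72 h. All arrays after induction lay above both 0 h arrays, and those of 24 h and 72 h overlapped. Its difference from 0 h was 0.25 ± 0.05 at 6 h (SE, n = 2 each, 1.19-fold, limma, adjusted p = 0.0298), 0.41 ± 0.05 at 24 h (1.33-fold, adjusted p = 0.0022) and 0.39 ± 0.05 at 72 h (1.31-fold, adjusted p = 0.00176). The call at 6 h was lost in 10 of the 19 alternatives. These include leaving out either 0 h array, either 6 h array or either 72 h array, which gave differences of 0.21 to 0.28 and adjusted p-values between 0.0521 and 0.148. The later calls of Snai2 held in all 19.

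Twist1, a basic helix-loop-helix factor of mesoderm and cranial mesenchyme, had a relative signal of 1.43 and 1.38 at 0 h, 1.86 and 1.91 at 6 h, 1.93 and 1.95 at 24 h, and 2.09 and 2.01 at 72 h. Its probe lies at chr12:34644411-34644470 (mm9). The step was between 0 and 6 h, and the pairs of arrays at 6, 24 and 72 h lay close to each other. The differences from 0 h were 0.42 ± 0.05 at 6 h (SE, n = 2 each, 1.34-fold, limma, adjusted p = 0.00472), 0.47 ± 0.05 at 24 h (1.38-fold, adjusted p = 0.000969) and 0.54 ± 0.05 at 72 h (1.46-fold, adjusted p = 0.000363). All 3 calls of Twist1 held in all 19 alternatives. From 6 to 24 h the difference was 0.04 (adjusted p = 0.531) and from 24 to 72 h 0.08 (adjusted p = 0.286), and neither passed the test.

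Twist2, its close relative, also known as Dermo1 for its place in the dermis, changed the most of the 8 genes by 72 h. Its probe lies at chr1:93744519-93744577 (mm9). Twist2 had a relative signal of 1.16 and 1.20 at 0 h, 1.53 and 1.62 at 6 h, 2.05 and 2 at 24 h, and 2.31 and 2.49 at 72 h. No 2 times overlapped, and the order of the arrays was the order of the times. Twist2 was 0.42 ± 0.06 higher at 6 h than at 0 h (SE, n = 2 each, 1.33-fold, limma, adjusted p = 0.0091), 0.78 ± 0.06 higher at 24 h (1.71-fold, adjusted p = 0.000412) and 1.02 ± 0.06 higher at 72 h (2.03-fold, adjusted p = 0.000104). The calls at 24 and 72 h held in all 19 alternatives. The one at 6 h was lost without 0 h replicate 1 (0.39), without 6 h replicate 2 (0.38) and with no filter on dim probes.

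**Figure D2:**
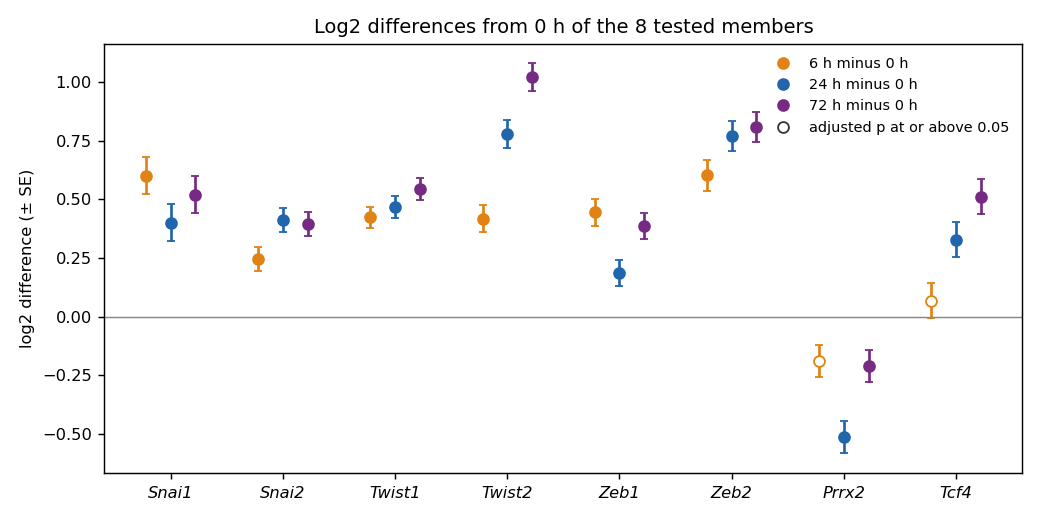
Log2 differences from 0 h of the 8 tested genes at 6 h (orange), 24 h (blue) and 72 h (purple), with bars of 1 SE from limma. Open symbols have an adjusted p at or above 0.05. Prrx2 lies below 0 at all 3 times, the other genes lie above it, and Twist2 at 72 h is the highest at 1.02.

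Zeb1 encodes a repressor with zinc fingers at both ends and a homeodomain between them. The probe of Zeb1 lies at chr18:5774613-5774672 (mm9). Zeb1 had a relative signal of 3.03 and 2.97 at 0 h, 4.16 and 4 at 6 h, 3.26 and 3.56 at 24 h, and 3.92 and 3.91 at 72 h. It was highest at 6 h and lower at 24 h, with 72 h between them, and none of these 3 pairs of arrays overlapped another. Its difference from 0 h was 0.45 ± 0.06 at 6 h (SE, n = 2 each, 1.36-fold, limma, adjusted p = 0.0072), 0.19 ± 0.06 at 24 h (1.14-fold, adjusted p = 0.0467) and 0.39 ± 0.06 at 72 h (1.31-fold, adjusted p = 0.00273). The call at 6 h was lost with no filter on dim probes (limma, adjusted p = 0.0515). The call at 24 h stood near the threshold and was lost in 12 of the 19 alternatives, 7 of which leave out 1 array. Leaving out any array but 24 h replicate 1 lost it, with adjusted p-values of 0.0734 to 0.158, and the difference was 0.12 without 24 h replicate 2. With the replicate number as a block Zeb1 at 24 h had an adjusted p of 0.0618.

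Zeb2, the second gene of this family, is read by a brighter probe at chr2:44842774-44842833 and a dimmer one at chr2:44840038-44840097 (mm9). The brighter probe had a relative signal of 0.910 and 0.934 at 0 h, 1.35 and 1.45 at 6 h, 1.5 and 1.65 at 24 h, and 1.60 and 1.63 at 72 h. Both 0 h arrays lay well below the rest, and the 24 h and 72 h arrays overlapped. Zeb2 by this probe was 0.60 ± 0.07 higher at 6 h than at 0 h (SE, n = 2 each, 1.52-fold, limma, adjusted p = 0.00466), 0.77 ± 0.07 higher at 24 h (1.70-fold, adjusted p = 0.000619) and 0.81 ± 0.07 higher at 72 h (1.75-fold, adjusted p = 0.000307). All 3 calls held in all 19 alternatives.

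The dimmer Zeb2 probe had a relative signal of 0.0539 and 0.0390 at 0 h, 0.0541 and 0.0569 at 6 h, 0.0739 and 0.0691 at 24 h, and 0.0534 and 0.0552 at 72 h. Only its spot on 0 h replicate 2 was not above background, and its 72 h values lay around 0 h replicate 1. With every kept probe tested on its own, its difference from 0 h was 0.28 ± 0.15 at 6 h (SE, limma, adjusted p = 0.275), 0.64 ± 0.15 at 24 h (adjusted p = 0.0201) and 0.24 ± 0.15 at 72 h (adjusted p = 0.227). The dimmer probe thus passed the test at 24 h only. Its 0 h mean includes the spot at background. Against the 0 h spot above background (0.0539) its 72 h values and one of its 6 h values showed no rise. At 6 and 72 h the dimmer probe thus did not repeat the rise of the brighter one, and the reason was not tested.

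The upstream sequence of 1 Zeb2 start is shown because it holds 2 copies of TGANTCA, the motif of AP-1, whose subunit gene Fosl1 is among the inducers described below. The window (RefSeq, GRCm38.p6, chr2:45110278-45110527, minus strand) is printed 5′ to 3′ on the strand of the gene, with the copies in capitals, which begin 189 and 132 bases before the start:
Zeb2: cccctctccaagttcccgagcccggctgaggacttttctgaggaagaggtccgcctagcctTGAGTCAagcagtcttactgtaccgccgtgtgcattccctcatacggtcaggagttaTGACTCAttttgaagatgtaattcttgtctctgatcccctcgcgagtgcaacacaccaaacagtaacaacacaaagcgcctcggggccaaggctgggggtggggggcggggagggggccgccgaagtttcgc
This motif reads the same way on the opposite strand, is no form of the E-box, and is in 6.75% of the 32851 windows. The other 3 Zeb2 windows and those of Snai1, Twist1, Twist2, Prrx1 and Prrx2 do not hold it, and none of the Zeb2 windows holds an E-box. The match is a description and says nothing on binding in these cells, and whether AP-1 acts on Zeb2 was not tested.

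Tcf4 encodes an E protein, a dimer partner of Twist and other tissue-specific helix-loop-helix factors. Its brighter probe at chr18:69842843-69842902 (mm9) had a relative signal of 3.31 and 3.47 at 0 h, 3.54 and 3.57 at 6 h, 4.03 and 4.5 at 24 h, and 4.63 and 5.04 at 72 h. The arrays of 0 and 6 h lay close together, and those of 24 and 72 h lay above them. Tcf4 differed by 0.07 ± 0.07 between 6 h and 0 h (SE, n = 2 each, limma, adjusted p = 0.576), which did not pass the test, and was 0.33 ± 0.07 higher at 24 h (1.26-fold, adjusted p = 0.0164) and 0.51 ± 0.07 higher at 72 h (1.43-fold, adjusted p = 0.00249). The call at 24 h was lost without 0 h replicate 1 (0.29) and without 24 h replicate 2 (0.25). It was also lost with no filter on dim probes and with only the arrays compared. The call at 72 h held in all 19 alternatives.

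A dimmer Tcf4 probe at chr18:69847562-69847621 (mm9), above background on all 8 arrays, had a relative signal of 0.0533 and 0.0583 at 0 h, 0.0509 and 0.0545 at 6 h, 0.0497 and 0.0474 at 24 h, and 0.0614 and 0.0664 at 72 h. Its 24 h arrays were the lowest and its 72 h arrays the highest. The differences of this probe from 0 h were -0.08 ± 0.07 at 6 h (SE, limma, adjusted p = 0.502), -0.20 ± 0.07 at 24 h (adjusted p = 0.0833) and 0.20 ± 0.07 at 72 h (adjusted p = 0.0747), none of which passed the test. The probes of Tcf4 thus had opposite signs at 24 h, and which transcripts each one reads was not tested.

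**Figure D3:**
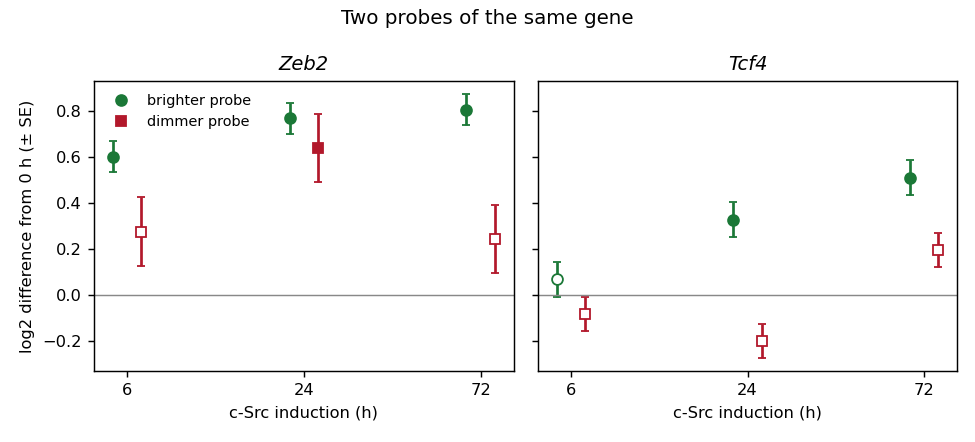
Log2 differences from 0 h at 6, 24 and 72 h for the brighter (green circles) and dimmer (red squares) probes of Zeb2 and Tcf4, with bars of 1 SE from limma. Open symbols have an adjusted p at or above 0.05 with all kept probes tested. For Tcf4 at 24 h the brighter probe lies above 0 and the dimmer one below it.

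Prrx2, a paired-related homeobox gene of limb and craniofacial mesenchyme, was the 1 tested gene that fell. Its probe lies at chr2:30736678-30736737 (mm9). Prrx2 had a relative signal of 20.4 and 20.2 at 0 h, 18.1 and 17.5 at 6 h, 15.1 and 13.3 at 24 h, and 17.6 and 17.5 at 72 h. The 24 h arrays were the lowest, and the 72 h arrays fell within or next to the 6 h pair. The difference from 0 h was -0.19 ± 0.07 at 6 h (SE, n = 2 each, limma, adjusted p = 0.12), -0.51 ± 0.07 at 24 h (1.43-fold lower, adjusted p = 0.00259) and -0.21 ± 0.07 at 72 h (1.16-fold lower, adjusted p = 0.0466). Of these the call at 24 h held in all 19 alternatives. The call at 72 h was lost in 9, among them leaving out either 0 h, either 6 h or either 72 h array (-0.20 to -0.22, adjusted p = 0.0729 to 0.152), and under scaling by the array median the difference was -0.03 (adjusted p = 0.858).

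Prrx1, the other gene of that pair, and Ovol1 could not be tested. Prrx1 has a probe at chr1:165175375-165175434 that was above background on 0 h replicate 2 alone, with a relative signal of 0.097 there and 0.00561 to 0.0097 on the other 7 arrays. A further Prrx1 probe at chr1:165185408-165185467 was above background on no array, at 0.00633 to 0.00954. Ovol1, at chr19:5549209-5549268 (all mm9), was likewise above background on no array, at 0.00612 to 0.00986 up to 24 h and 0.0137 and 0.0151 at 72 h. These values are bounds set by the array's background and no differences were drawn from them. Between the 60-base probes of the related pairs Snai1 and Snai2, Twist1 and Twist2, Zeb1 and Zeb2, and Prrx1 and Prrx2, the longest shared run was 6 or 7 bases.

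Between the later times the 8 genes parted. From 6 to 24 h Twist2 rose by 0.36 (limma, adjusted p = 0.0094), while Zeb1 (-0.26, adjusted p = 0.0251) and Prrx2 (-0.33, adjusted p = 0.0216) fell, so 1 gene was called higher and 2 lower, against 12.5% and 13.6% of all tested genes (26.1% in either direction). The arrays of 6 and 24 h did not overlap on any of the 8 genes, as on 65.1% of all tested genes. The Twist2 call was lost without 6 h replicate 1 (0.32) and with no filter on dim probes. That of Prrx2 was lost without either 6 h array (-0.30 and -0.35), and that of Zeb1 without either 6 h array, 24 h replicate 1 or either 72 h array (-0.19 to -0.29). The Prrx2 and Zeb1 calls were also lost with no filter on dim probes and with only the arrays compared. Under median scaling Zeb1 (-0.16, adjusted p = 0.204) and Prrx2 (-0.23, adjusted p = 0.209) lost their calls while Zeb2 (0.26, adjusted p = 0.0393) and Tcf4 (0.36, adjusted p = 0.0175) gained one, which makes 3 genes higher and 0 lower. As scaled here, Tcf4 had a difference of 0.26 that did not pass the test (adjusted p = 0.0516).

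From 24 to 72 h Twist2 (0.24, adjusted p = 0.0367) and Prrx2 (0.31, adjusted p = 0.0307) were called higher by limma, and 10.8% of all tested genes were (21.6% in either direction). The arrays of 24 and 72 h did not overlap on 6 of the 8 genes, and on 64.9% of all tested genes. Neither call held throughout. The Twist2 call was lost without any single one of the 8 arrays (0.19 to 0.30, adjusted p = 0.0606 to 0.162), and that of Prrx2 without any array but 24 h replicate 1 (0.21 to 0.31, adjusted p = 0.0531 to 0.128). Zeb1 had a difference of 0.20 that did not pass the test (adjusted p = 0.0589).

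Set against 6 h, 3 genes were called higher at 72 h, where 22.9% of all tested genes were (45.2% in either direction), and the arrays did not overlap on 7 of the 8, against 76.4% of all tested genes. They were Twist2 (0.60, limma, adjusted p = 0.000791), Tcf4 (0.44, adjusted p = 0.00524) and Zeb2 (0.21, adjusted p = 0.0471). The calls of Twist2 and Tcf4 held in all 19 alternatives. The Zeb2 call was lost without either 0 h, either 6 h or either 72 h array (0.15 to 0.26). It was also lost with no filter on dim probes, with every kept probe tested and with only the arrays compared. Snai1 differed by -0.08 between 72 h and 6 h (adjusted p = 0.44).

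**Figure D4:**
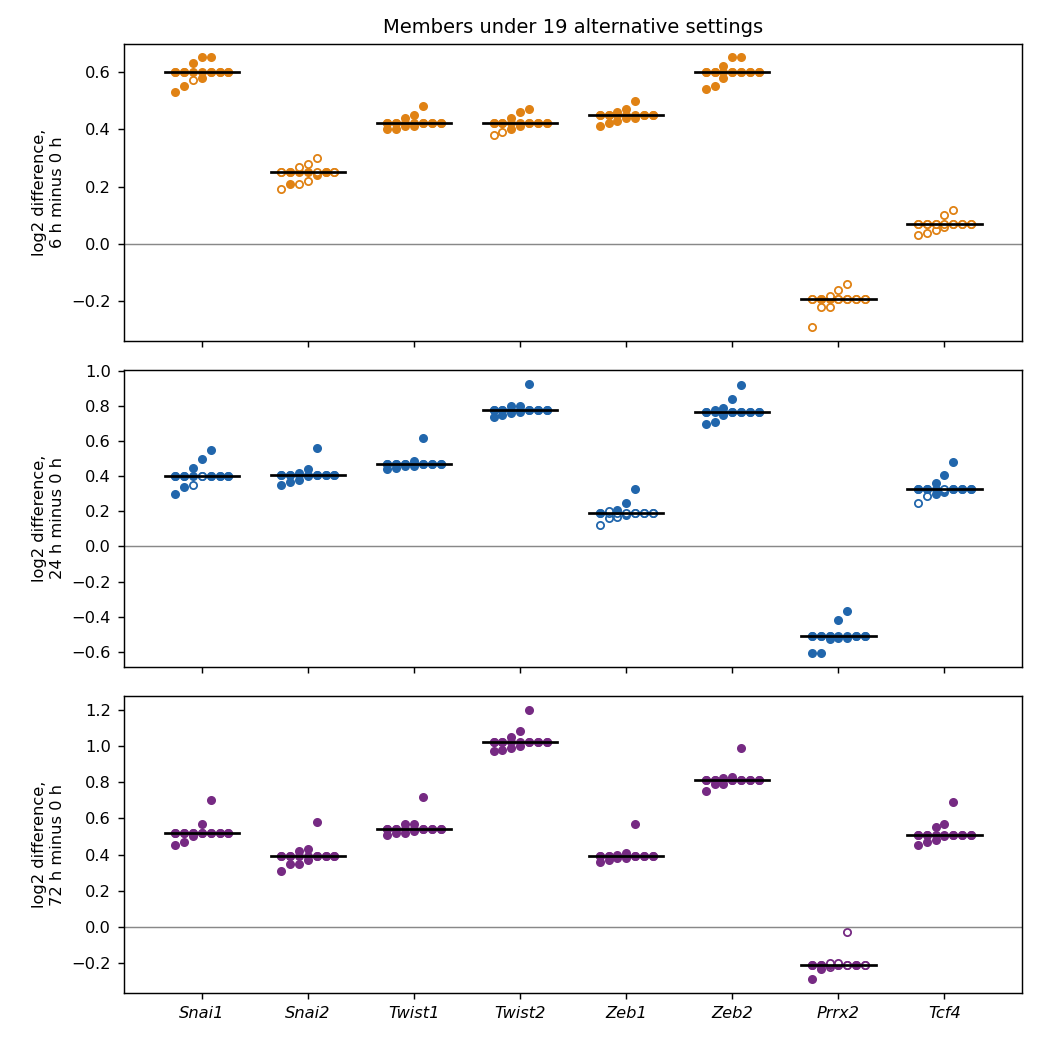
Log2 differences from 0 h at 6, 24 and 72 h for the 8 tested genes under the 19 alternative settings (points) and as reported (black lines). Filled points have an adjusted p under 0.05, open points do not, and points of equal value lie beside or on each other. Tcf4 and Prrx2 at 6 h, which were not called as reported, have only open points and mostly open points. Among the calls, the open points gather on Snai2 at 6 h, Zeb1 at 24 h and Prrx2 at 72 h. Prrx2 at 72 h reaches -0.03 under median scaling.

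For each of the 8 genes the tested genes with the most similar course were sought by Pearson's r of log2 relative signal over the 8 arrays. These r values describe 4 times in pairs, on arrays that share slide and scaling, and carry no test. Closest to Zeb2 were Nt5dc3 (r = 0.9972), Myc (0.9963), the growth-promoting helix-loop-helix factor, and Has2 (0.996), a hyaluronan synthase. Zeb1, with its high 6 h value, was closest to Zfp280b (0.9925), Jdp2 (0.9905), a partner of AP-1 proteins, and Relb (0.9854), an NF-kB subunit. Close to Snai1 were Ubald1 (0.9882) and the chemokine gene Ccl7 (0.9826).

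Twist2, with its steady climb, was closest to Slc38a1 (0.9975), an amino acid transporter, Tulp4 (0.9961) and Srgap1 (0.9957), and 11.9% of all tested genes had an r above 0.9 with it. That share was 11.7% for Tcf4, 7.65% for Snai2, 7.39% for Zeb2 and 5.84% for Twist1. For Zeb1 it was 0.587%, for Prrx2 1.07% and for Snai1 1.63%. Twist1 was closest to Spata5 (0.9957), the noncoding RNA listed as NEAT1 (0.9947) and Zc3h15 (0.9946). Snai2 was closest to Aggf1 (0.9955), Brix1 (0.9919) and Btg3 (0.99), Tcf4 to Ostf1 (0.9969), Arfrp1 (0.9961) and Gadd45gip1 (0.9941), and Prrx2 to the endocytic receptor gene Lrp1 (0.9831), Tubgcp2 (0.9825) and Arid3b (0.9801).

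A further 6 gene lists of the same programme were read from the same fit: inducers, partners and Id antagonists, corepressors, regulators of Snail and Twist protein stability, mesenchymal genes and epithelial genes. Their counts stand against the shares of all tested genes, 10.3% higher and 7.15% lower at 6 h, 21.3% and 20.1% at 24 h, and 27.4% and 24.6% at 72 h, and against medians of all genes of 0.01, -0.02 and 0.00. Among 16 tested inducers 6 were called higher and 1 lower at 6 h, 5 and 5 at 24 h, and 6 and 6 at 72 h, with median differences of 0.07, 0.01 and -0.15. Scaled by the array median, 7 were called higher and 4 lower at 24 h, and 7 and 5 at 72 h. Fosl1, a Fos-family subunit of AP-1, was 14.4-fold higher at 6 h, 15.7-fold at 24 h and 15.2-fold at 72 h than at 0 h (limma, adjusted p = 6.43e-05, 3.74e-05 and 2.17e-05). Under normexp background correction its log2 differences were 3.01, 3.12 and 3.08, against 3.85, 3.97 and 3.93 as reported. Hmga2, a chromatin protein reported to raise Snai1 and Twist1, was 3.5-fold, 11.4-fold and 9.23-fold higher at these times. The early growth response gene Egr1 was 8.94-fold higher at 6 h and Hif1a 1.58-fold.

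The transforming growth factor genes, whose products are the classic inducers of these factors, were split. Tgfb2 had log2 differences of -1.61 at 24 h (adjusted p = 0.000374) and -2.67 at 72 h (adjusted p = 6.03e-05), and Tgfb3 of -1.68 (adjusted p = 0.00017) and -2.08 (adjusted p = 5.63e-05), all in limma. At 6 h Tgfb3 was already called lower (-0.64, limma, adjusted p = 0.00809) and Tgfb2 was not called (-0.24, adjusted p = 0.216). Tgfb1 had differences of 0.49 at 6 h, 0.68 at 24 h and 0.50 at 72 h (adjusted p = 0.00357, 0.000362 and 0.000567), and is named after its values were seen. The Tgfb2 and Tgfb3 calls at 24 and 72 h and the Fosl1, Hmga2, Egr1 and Hif1a calls given here held in all 19 alternatives.

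Of the 9 tested helix-loop-helix partners and Id antagonists, which take E proteins away from Twist, 0 were called in either direction at 6 h, 2 were called lower at 24 h, and 1 higher and 5 lower at 72 h. The shares of all genes called lower at these times were 7.15%, 20.1% and 24.6%. The list's medians were -0.04, -0.06 and -0.46, and under median scaling 1 gene was called higher and 1 lower at 24 h, and 1 and 4 at 72 h. Id3 had a difference of -0.70 at 24 h and -0.63 at 72 h, and Id1 of -0.30 and -0.46 (limma, adjusted p = 0.0029, 0.00297, 0.0121 and 0.00187). The Id1 call at 24 h was lost in 4 of the 19 alternatives, among them leaving out 24 h replicate 2. At 72 h Id4 had a difference of -1.71 (adjusted p = 0.00441), with 1 of its 72 h arrays above background and -0.58 under normexp correction, and Hand2, a limb and heart factor, of -0.91 (adjusted p = 0.000429), -0.54 under normexp. Of the E proteins beside Tcf4, Tcf12 differed by 0.45 at 72 h (adjusted p = 0.00335) and Tcf3 by -0.13 (adjusted p = 0.0764), both named after their values were seen.

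Of the 17 corepressors through which Snail and Zeb proteins silence genes, 0 were called higher and 1 lower at 6 h, 4 and 3 at 24 h, and 4 and 2 at 72 h, with medians of 0.00, 0.06 and 0.07. All genes had 21.3% higher and 20.1% lower calls at 24 h, and 27.4% and 24.6% at 72 h. The split depended on the scaling: under median scaling 7 were called higher and 0 lower at 24 h and 8 and 0 at 72 h, and after quantile normalization 2 and 3 at 24 h and 2 and 4 at 72 h. Prmt5, an arginine methyltransferase, differed by 0.44 at 24 h and 0.35 at 72 h (limma, adjusted p = 0.00222 and 0.00364), and Suz12, a Polycomb subunit, by 0.31 at 72 h (adjusted p = 0.00661). The histone deacetylase Hdac1 and the LIM protein Limd1 differed by -0.40 and -0.39 at 72 h (adjusted p = 0.000872 and 0.00459), each losing its call in 1 alternative. The calls of Ajuba (-0.30 at 6 h, -0.33 at 24 h), Hdac2 (0.37 at 24 h) and Wtip (0.24 at 24 h) were each lost without 0 h replicate 2. They were also lost without 0 h replicate 1, either 6 h array or either 72 h array for Ajuba at 6 h, without either 24 h array for Hdac2, and without 24 h replicate 2 for Wtip. Over all 19 alternatives the Ajuba call was lost in 9 at 6 h and 4 at 24 h, and those of Hdac2 and Wtip in 5 each.

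Snail and Twist are controlled through protein turnover as well, which an RNA array does not measure. Of 13 tested regulators of their stability 2 were called higher and 1 lower at 6 h, 4 and 3 at 24 h, and 7 and 2 at 72 h, with medians of 0.03, 0.11 and 0.21, against 10.3% and 7.15%, 21.3% and 20.1%, and 27.4% and 24.6% of all genes. Under median scaling 6 were called higher and 1 lower at 24 h, and 8 and 1 at 72 h. Btrc, the ubiquitin ligase subunit that marks phosphorylated Snail for degradation, differed by -1.01 at 24 h and -1.55 at 72 h (limma, adjusted p = 0.00074 and 0.000118). Under normexp correction these differences were -0.78 and -1.09. At 72 h Fbxl5 and Fbxo11, F-box proteins also known to target Snail, differed by 0.70 and 0.37 (adjusted p = 0.00194 and 0.00368), and Cops2, a subunit of the COP9 signalosome, by 0.56 (adjusted p = 0.000933). All these calls held in all 19 alternatives.

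Other calls of this list were lost when single arrays were left out. At 6 h those of Btrc (-0.37) and Fbxl14 (0.19) were lost without either 0 h, either 6 h or either 72 h array, and that of Csnk1e (0.34) without either 0 h or either 6 h array. At 24 h the call of Fbxl5 (0.40) was lost without 0 h replicate 2 or either 24 h array, and that of Pak1 (0.33) without 0 h replicate 2 or 24 h replicate 1. Fbxl14 at 24 h (0.22) kept its call without any single array but lost it in 2 of the 19 alternatives.

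The mesenchymal genes that these factors accompany in epithelial cells were called in both directions from 24 h on. At 6 h 2 of 22 tested were called higher and 0 lower, at 24 h 5 and 12, and at 72 h 6 and 12, with medians of 0.02, -0.27 and -0.29. Of all genes 10.3%, 21.3% and 27.4% were called higher at these times, and 7.15%, 20.1% and 24.6% lower. Acta2, smooth muscle actin, was 2.86-fold higher at 6 h and 2.63-fold at 24 h than at 0 h (limma, adjusted p = 0.000247 and 0.00014). Vim, the intermediate filament vimentin, differed by 0.65 at 72 h (adjusted p = 0.000471) and Cdh2, N-cadherin, by 0.30 (adjusted p = 0.00269), both named after their values were seen.

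On the lower side of the mesenchymal list, the collagen cross-linking enzyme Lox was 2.27-fold lower at 24 h and 3.53-fold lower at 72 h than at 0 h (limma, adjusted p = 0.000108 and 2.17e-05), and Col3a1, a fibrillar collagen, 2.14-fold lower at 24 h (adjusted p = 0.000191). At 72 h Cdh11, a cadherin of mesenchymal cells, had a difference of -2.11 and the growth factor receptor Pdgfrb of -1.62 (adjusted p = 7.08e-05 and 0.000119). Under normexp correction these were -1.58 and -1.48. Tnc, tenascin C, had a difference of -2.22 (adjusted p = 0.00121), with 1 of its 72 h arrays above background and -0.67 under normexp correction. Scaled by the array median, 5 mesenchymal genes were called higher and 6 lower at 24 h, and 6 and 9 at 72 h.

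**Figure D5:**
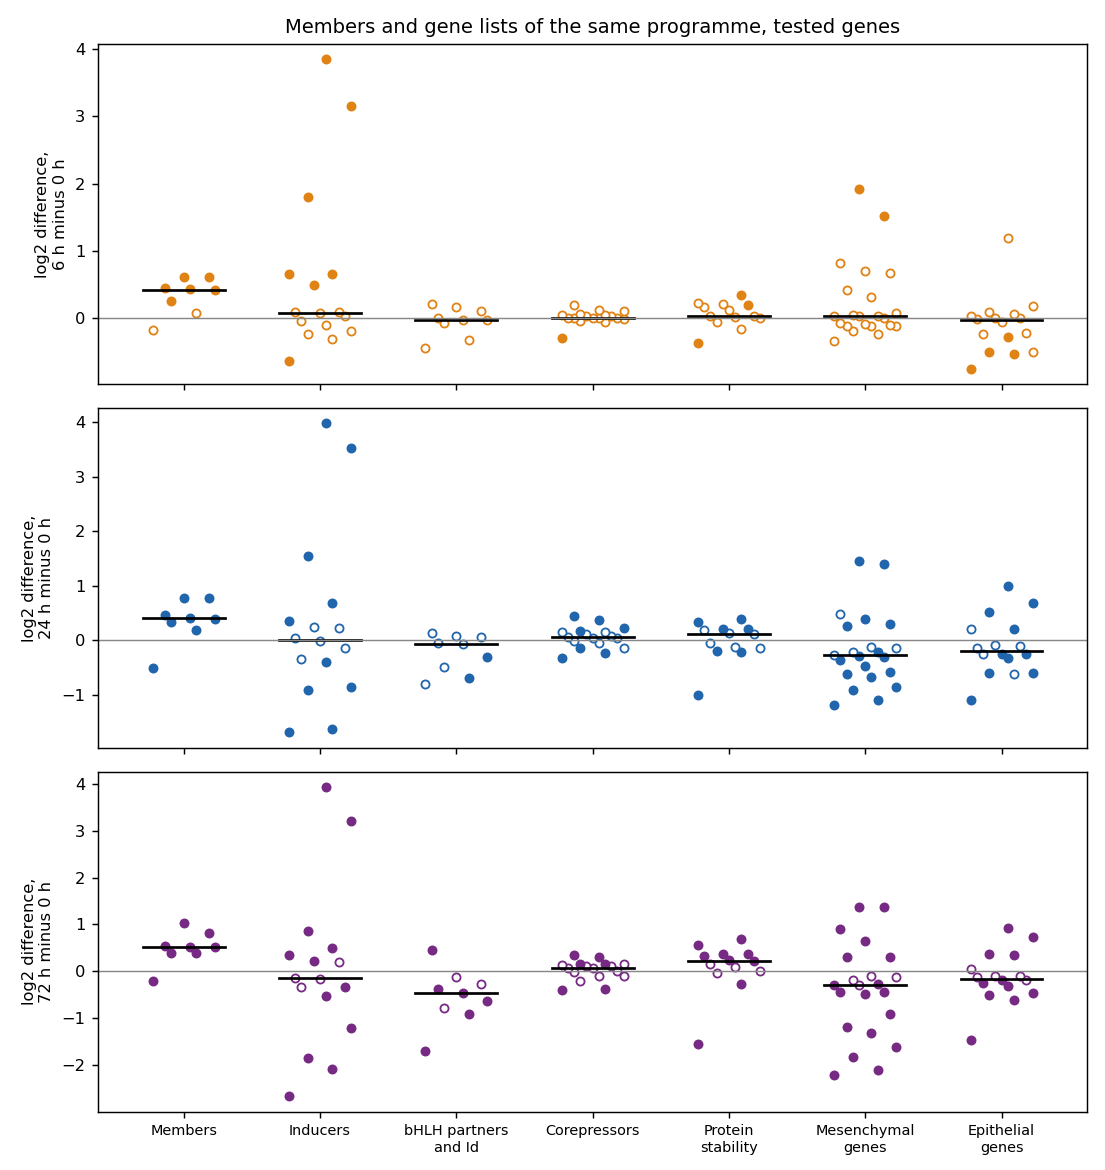
Log2 differences from 0 h at 6, 24 and 72 h (top to bottom) of the tested genes among the 10 factors and of 6 gene lists. Filled points have an adjusted p under 0.05 in limma, and black lines are medians. The 3 panels have different axes. Of the 8 factors 7 lie above 0 in each panel, while inducers, mesenchymal genes and epithelial genes spread to both sides.

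Cdh1, Epcam, Cldn1, Cldn3, Cldn4, Ocln, Crb3, Elf3, Rab25 and St14, 10 of the 27 epithelial genes, were above background on no array, so a repression of Cdh1 could not be seen in these cells at any time. Of the 16 tested, 0 were called higher and 4 lower at 6 h, 4 and 6 at 24 h, and 4 and 7 at 72 h, with medians of -0.04, -0.19 and -0.15, against 10.3% and 7.15%, 21.3% and 20.1%, and 27.4% and 24.6% of all genes. The tight junction gene Tjp3 was 1.69-fold lower at 6 h, 2.12-fold at 24 h and 1.52-fold at 72 h than at 0 h (limma, adjusted p = 0.00207, 0.000204 and 0.000658). Llgl2, a polarity gene, differed by -0.54 at 6 h (adjusted p = 0.00596) and Esrp2, an epithelial splicing regulator, by -0.61 at 24 h (adjusted p = 0.0012). The keratin gene Krt8 rose, by 0.68 at 24 h and 0.93 at 72 h (adjusted p = 0.00515 and 0.00118).

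Grhl2, an epithelial factor that opposes Zeb1, was above background on 1 of 2 arrays at 0 h, on none at 6 h and on all at 24 and 72 h. It was called lower at 6 h (limma, adjusted p = 0.019), a call lost in 8 of 18 alternatives, among them leaving out either 6 h array, and its difference there was -0.06 under normexp correction, so no fold is drawn from it. It differed by 0.99 at 24 h and 0.73 at 72 h (adjusted p = 0.000816 and 0.00151), but by 0.24 and 0.16 under normexp. The calls of the desmosome gene Dsp at 6 h (-0.29) and the keratin gene Krt19 at 72 h (-1.46) were lost as well, for Dsp without 0 h replicate 2, either 6 h array or either 72 h array, and for Krt19 without either 72 h array. Under median scaling 4 epithelial genes were called higher and 3 lower at 24 h, and 4 and 4 at 72 h.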

How the data were processed

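RNA of the 8 samples was read on 1-colour Agilent 8x60K mouse arrays, all on 1 slide. Replicate number follows the slide column and time the slide row, so row and time cannot be told apart. Per the file headers, the deposited processed signal is an intensity on a linear scale, background-corrected by the authors' Feature Extraction 10.5.1.1 with mm9 coordinates, whereas the submitters' processing notes give 10.7.3.1. The 75th percentile of the 59305 spots that are not controls was 370.3 to 393, and 49.9% to 54.7% of spots were well above background. The deposited value table gives that intensity rounded, within 0.497%.

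The log2 intensity minus each array's 75th percentile was averaged over a probe's spots. A probe was kept if well above background on both arrays of at least 1 time (28609 of 55681 probes), and the brightest stood for its gene. Times were compared in limma (3.58.1, R 4.3.3) by fitting a mean per time (4 residual degrees of freedom, prior 1.7), tested on simulated data. The 19 alternatives were median scaling, quantile normalization, normexp with an offset of 50, the value table, outlier spots left out, other probe filters, every kept probe, a variance trend, the arrays of the times compared, a replicate block and leaving out each array. Promoters are RefSeq's (GRCm38.p6).

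Named were all 10 members, Src and Csk, up to 4 called genes per list and comparison with 0 h by size, and the 3 genes most correlated with each member, names of clones and loci left out; some of these genes are not reported here. The members, lists and tests were chosen with earlier results of these data known. Figures were drawn with matplotlib 3.10.9.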

Additional observations from a re-analysis of the deposited data

How the results depend on the processing

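Of 912 values of single members under alternatives, 799 kept sign and side of the threshold, 87 lost their call, 19 gained one and 7 changed sign. None of those 7 had a call: Snai2 from 24 to 72 h (0.01 under median scaling, -0.06 to 0.02 with 1 array left out), Zeb2 from 24 to 72 h (-0.03 to 0.11 with 1 array left out), and from 6 to 72 h Snai1 (0.05), Zeb1 (0.07) and Prrx2 (0.11) under median scaling and Prrx2 with 1 array left out (-0.05 to 0.01). Median scaling moved the median of all genes to 0.13 at 24 h, 0.18 at 72 h and 0.13 from 6 to 72 h, and the share of higher calls to 76.9%, 74.6% and 75.1% at 6, 24 and 72 h, against 58.9%, 51.4% and 52.7% as reported and 47.0%, 48.4% and 51.7% after quantile normalization. From 6 to 24 h, 24 to 72 h and 6 to 72 h that share was 69.0%, 61.8% and 70.9%, against 48.0%, 49.9% and 50.6%. At 6 h the 3632 calls of all genes became 2282 under median scaling, 867 with no filter on dim probes and 1811 with only the arrays compared, and the 6 member calls became 3 with no filter. At 24 h the 8640 calls became 5600 with no filter, and the 8 member calls 5 with only the arrays compared. From 6 to 24 h the 5440 calls became 2025 with no filter and 2667 with only the arrays compared, and the 3 member calls 0, 5 with a variance trend and 1 with only the arrays compared. From 24 to 72 h the 4511 calls became 2625 under median scaling, 926 with no filter and 1055 with only the arrays compared, and the 2 member calls became 0 under each. From 6 to 72 h the 9422 calls became 6246 with no filter. Leaving out 1 array gave 1205 to 3579 calls of all genes and 3 to 7 of members at 6 h, 6630 to 7897 and 5 to 8 at 24 h, 8167 to 10954 and 7 to 8 at 72 h, 2620 to 4650 and 0 to 4 from 6 to 24 h, 1083 to 3909 and 0 to 1 from 24 to 72 h, and 6623 to 9439 and 2 to 3 from 6 to 72 h. The cause of these moves was not tested, beyond fewer arrays or more probes entering. Arrays with the same replicate number deviated together with correlations of 0.054 to 0.168 and were not taken as pairs. With that number as a block, members had 6, 7 and 8 calls at 6, 24 and 72 h and 4, 2 and 3 between later times, and all genes 4065, 9190, 11396, 5882, 5001 and 9955. Zeb1 at 24 h was the member call the block lost (0.19, adjusted p = 0.0618 in limma), and Tcf4 from 6 to 24 h the one it gained (0.26, adjusted p = 0.0255). Prrx1, Ovol1 and the dimmer probes are limited by signal near background.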
